A study of Mus musculus with 14 samples.

Results

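Trimethylation of lysine 27 of histone H3 (H3K27me3) was examined at 10 LIM homeobox genes, Lhx1, Lhx2, Lhx3, Lhx4, Lhx5, Lhx6, Lhx8, Lhx9, Isl1 and Isl2, in mouse primary hippocampal neurons after knockdown of the long noncoding RNA NeuID. A peak of the deposited list belonged to a gene when it overlapped the gene body extended by 5 kb on each side, the gene window, in the GENCODE annotation of mouse build mm10. This gave 69 of the 23668 listed peaks, at 9 of the 10 genes. Lhx2 had none.

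The wild-type neurons came from late-embryonic CD1 hippocampi of mixed-sex litters. Both groups were treated in culture with gapmers, short modified oligonucleotides around a DNA core that direct RNase H to the RNA they bind, delivered in lipid nanoparticles. The control received a control gapmer and the NeuID knockdown received gapmers against NeuID. Per the labels there were 6 control and 6 knockdown libraries of chromatin immunoprecipitated for H3K27me3 and sequenced (ChIP-seq), plus 1 input library per condition. How libraries related to separate dissections was not stated, and depth per library was not analysed here.

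Each peak carries the authors' mean of normalized reads in each group on the log2 scale, and no value per library. No SD, n or test therefore accompanies a value below, and every difference (knockdown minus control, log2) is a description of these means. A difference of at least 1, a 2-fold gap, is called past the limit. A group mean of no more than 1 normalized read is listed at 0. The overall means of the table weight the groups as 6 control to 5 knockdown libraries, whereas the labels list 6 of each. The knockdown itself cannot be checked from these peaks. As a check on the cell type, 2 of 10 neuron marker genes (Rbfox3 and Neurod2) had a listed peak over a start, against 3 of 11 markers of astrocytes, oligodendrocyte lineage and microglia (Olig1, Olig2 and Sox10). These last had, in control and knockdown, means of 3.21 and 5.94 at Olig1, 6.60 and 6.41 at Olig2 and 3.41 and 3.30 at Sox10, all factors of the oligodendrocyte lineage, so Olig1 was higher in the knockdown and the other two slightly lower. The neuron marker peaks had means of 5.47 and 4.71 at Rbfox3 and 5.97 and 5.73 at Neurod2, in control above Olig1 and Sox10. These counts and means therefore do not identify the cell type, and the share of all genes with such a peak was not computed. The part of other cell types in the values below was not tested.

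LIM homeobox genes encode transcription factors with a DNA-binding homeodomain and LIM domains, zinc-binding modules that join cofactors such as the LIM domain binding proteins. Combinations of these factors specify neuron classes during development, among them motor neurons, cortical interneurons and Cajal-Retzius cells. H3K27me3 is deposited by Polycomb repressive complex 2 and marks, often in broad domains, developmental genes that are silent in a given cell type.

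In these neurons 9 of the 10 genes lay under broad H3K27me3. At peaks of 2 kb or more the means were close in both groups, with differences between -0.41 and 0.26. Of the 69 peaks, 34 were at least 1 kb wide, or 49.3%, against 9.72% of all listed peaks, and 16 reached 2 kb (23.2% against 2.93%). The median width was 998 bp against 426 bp, and the median overall mean 4.53 against 2.93 log2 normalized reads. Listed peaks covered between 23.4% (Lhx8) and 76.9% (Lhx1) of the windows of the 9 genes. Over the 21951 protein-coding genes of the annotation, 28.0% had any listed peak in a window of this kind and, among those, the median covered share was 1.61% and the 90th percentile 12.7%. All 9 genes lay above that percentile.

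**Figure D1:**
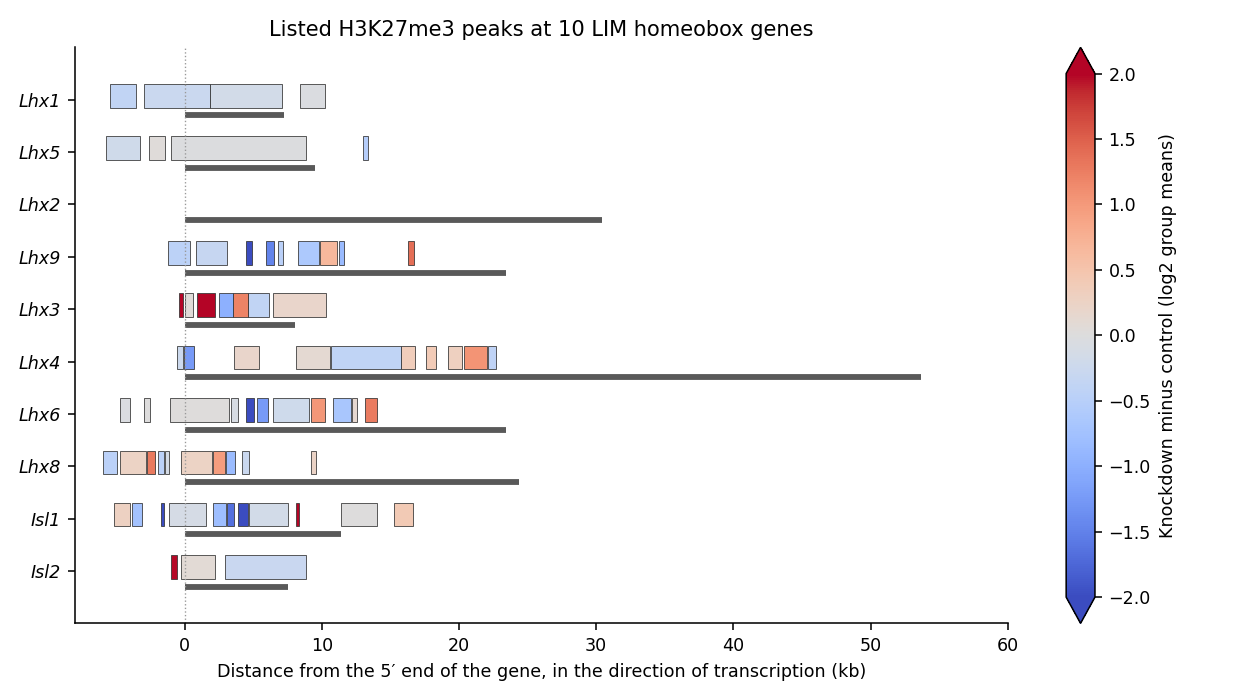
Each row is 1 gene, drawn from its 5′ end in the direction of transcription (x axis, kb), with the gene body as a grey bar and each listed H3K27me3 peak as a box coloured by the knockdown minus control difference of the log2 group means. The widest boxes are pale, between -0.41 and 0.26, the narrow boxes hold most of the deep colours, and Lhx2 has no box.

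The median difference over the 69 peaks was -0.12, against -0.02 over all listed peaks, with 39 peaks (56.5%) below 0 against 50.8% of the list. Among peaks with an overall mean of 4 or more the order was the other way, 51.2% against 57.4%. The summed normalized reads of the family came to 95.4% of the control (97.1% over the list, a difference of -0.04), a difference of -0.07 that turned to 0.04 when centred on the peaks that had an overall mean of 4 or more, whose own median difference was -0.11. Past the limit were 8 peaks lower in the knockdown (11.6%) and 10 higher (14.5%), against a background of 20.6% and 20.4% of all listed peaks. Among peaks of at least 1 kb, 0 of 34 (0%) were past the limit in the lower direction and 3 (8.82%) in the higher one. The background at that width was 7.91% and 5.08%. The smaller shares over all widths did not hold at each width. Between 500 bp and 1 kb, 6 of 20 LIM homeobox peaks (30.0%) were lower past the limit against 21.5% of the list. In that class 3 (15%) were higher against 15.5%. Below 500 bp, 2 of 15 (13.3%) were lower against 22.2%, and 4 (26.7%) were higher against 24.9%, a share near that of the list.

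In the list the median size of the differences was smaller in each wider class, which the family followed only from 500 bp upward. It was 0.18 for peaks of 2 kb or more, against 0.26 for all listed peaks of that width, and 0.43 against 0.47 for peaks of 1 to 2 kb. Between 500 bp and 1 kb it was 0.98 against 0.74, and below 500 bp 0.54 against 0.93.

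**Figure D2:**
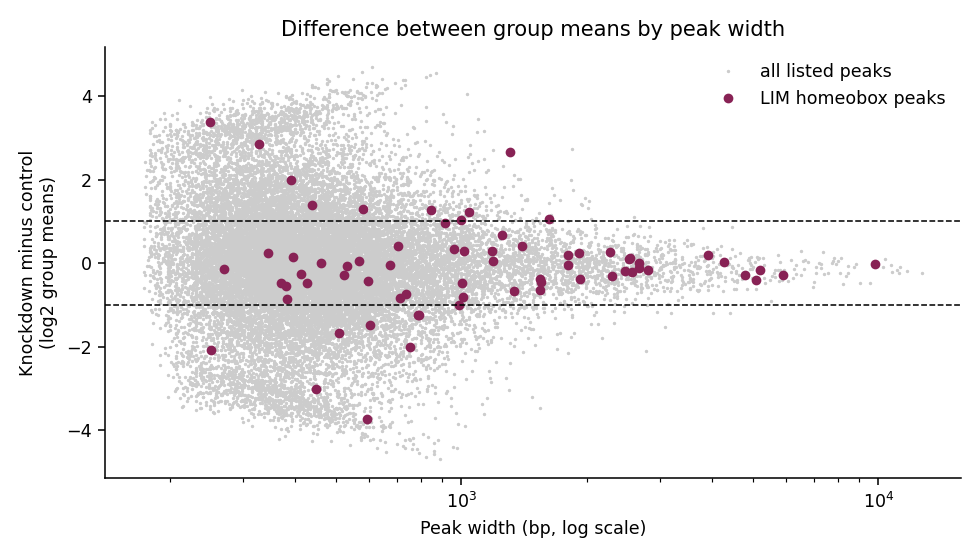
Knockdown minus control difference of the log2 group means (y axis) against peak width (x axis, bp, log scale) for all 23668 listed peaks (grey) and the 69 LIM homeobox peaks (purple); dashed lines mark differences of 1 and -1. The 16 LIM homeobox peaks of 2 kb or more lie between the dashed lines, and the peaks past the lines are below 1 kb except for 3 higher ones.

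Lhx1 and Lhx5 form a paralogue pair, both known from Cajal-Retzius cells, the early neurons that line the hippocampal fissure. Lhx1 is also known from the head organizer, and Lhx5 is needed for hippocampal morphogenesis. Both gene bodies were covered almost end to end and differed little between the groups. Lhx1 (chromosome 11, 84518284 to 84525535, minus strand) had 4 peaks, each of at least 1 kb and each lower in the knockdown by less than the limit. Its widest peak, 5193 bp over 3 annotated starts, had means of 7.50 in control and 7.34 in knockdown, a difference of -0.16. The neighbouring 4795 bp peak covers the remaining start and that of the antisense transcript Lhx1os, with means of 7.41 and 7.14 (-0.27). These data do not separate the overlapping transcripts.

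Lhx5 (chromosome 5, 120431699 to 120441223, plus strand) held the widest peak of the family, 9793 bp from upstream of the start to near the end of the gene, which ranked 10 by width and 10 by overall mean among all listed peaks. Its means were 8.29 in control and 8.25 in knockdown, a difference of -0.03, and it held 72.8% of the gene's control reads. The other 3 Lhx5 peaks had differences between -0.54 and 0.04. The 250 bases before the Lhx5 start lie inside this peak; they are shown as an example of sequence under a broad domain whose means nearly matched, and hold 9 CG pairs. Here and below, sequences are from RefSeq GRCm38.p6 (mm10), written 5′ to 3′ on the strand of the gene, with CG pairs in capitals (chr5:120431449-120431698, plus strand, upstream of the start).
Lhx5 upstream: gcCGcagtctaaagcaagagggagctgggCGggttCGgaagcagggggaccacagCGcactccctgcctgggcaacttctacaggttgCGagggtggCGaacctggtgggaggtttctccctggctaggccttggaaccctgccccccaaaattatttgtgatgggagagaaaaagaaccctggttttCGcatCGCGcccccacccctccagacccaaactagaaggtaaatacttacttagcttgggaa

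In the pair of Lhx2 and Lhx9, listed peaks lay at Lhx9 and none at Lhx2. Lhx2, a selector of cortical and hippocampal identity in progenitors that is also present in some cortical neurons, had 0 listed peaks in its 40453 bp window (gene at chromosome 2, 38339281 to 38369733, plus strand). The nearest listed peak began 9433 bp beyond the gene, with means of 1.72 in control and 2.79 in knockdown. Its upstream promoter is nevertheless dense in CG pairs, so it is shown for comparison with the marked members (chr2:38339031-38339270, plus strand, the part of the RefSeq promoter before any untranslated region). It holds 24 CG pairs in 240 bases, and the ratio of observed CG pairs to the number expected from its C and G content was 0.926.
Lhx2 promoter: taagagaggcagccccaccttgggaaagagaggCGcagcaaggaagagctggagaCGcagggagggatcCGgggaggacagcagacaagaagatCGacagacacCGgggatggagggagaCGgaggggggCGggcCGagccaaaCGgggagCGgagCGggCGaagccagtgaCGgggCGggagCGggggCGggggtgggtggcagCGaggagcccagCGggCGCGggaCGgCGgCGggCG

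Lhx9, which acts in gonad formation and in thalamic and dorsal spinal neurons, had the lowest summed signal of the family relative to control (chromosome 1, 138825186 to 138848577, minus strand). Its 9 peaks came to 23.0 normalized reads per kb of listed peak in control and 18.0 in knockdown, 78.2% of the control or a difference of -0.35, and 7 of the 9 were below 0. With its peaks of at least 1 kb alone the difference was -0.18, and Lhx1 was then lower at -0.22. The widest, 2292 bp over 2 starts, had means of 5.71 and 5.40 (-0.31), and the 1551 bp peak over the 5′-most start 4.88 and 4.44 (-0.44). The inner peaks differed more: the 603 bp peak over 3 internal starts, which covers 273 of the 300 bases of the RefSeq promoter, had means of 4.54 and 3.06 (-1.48).

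The lowest value of Lhx9 was at an intronic peak of 448 bp, with 3.41 in control and 0.40 in knockdown (-3.01). Together with a 370 bp peak in the same 2710 bp, these inner peaks formed the sole stretch of several neighbouring LIM homeobox peaks, joined across gaps below 1 kb, past the limit, at -1.34. The gap between the 603 bp and 448 bp peaks was 994 bp, so this stretch depends on where the joining limit was set. The share of stretches past the limit over the whole list was not computed. In the opposite direction, a 439 bp peak in a noncoding exon part further downstream had means of 1.70 and 3.08 (1.39). A stretch of the intronic peak is shown because its knockdown mean was close to the listed floor (chr1:138843760-138844009, minus strand, intron); it holds 11 CG pairs in 250 bases.
Lhx9 peak: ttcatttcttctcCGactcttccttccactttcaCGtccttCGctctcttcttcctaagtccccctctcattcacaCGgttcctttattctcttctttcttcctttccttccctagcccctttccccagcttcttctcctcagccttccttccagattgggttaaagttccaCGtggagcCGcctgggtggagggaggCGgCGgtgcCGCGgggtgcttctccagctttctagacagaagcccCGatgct

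Lhx3 and Lhx4 act in motor neuron and pituitary development. Lhx3 (chromosome 2, 26200212 to 26208289, minus strand) had the highest summed signal relative to control, 22.7 normalized reads per kb of listed peak in control and 28.3 in knockdown, a difference of 0.32. Its widest peak, 3904 bp, had means of 6.66 and 6.86 (0.20). The 1311 bp peak over an internal start, which includes the whole RefSeq promoter of that start and the start of Gm27196, had means of 2.99 and 5.65, a difference of 2.66 and the largest among LIM homeobox peaks of at least 1 kb. Without this peak the summed difference of Lhx3 was 0.08.

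On either side of that peak lay an intronic peak of 987 bp with means of 5.01 and 4.02 (-0.99) and a 568 bp peak over a coding exon with 3.96 and 4.02 (0.05). Further along the gene, a 1547 bp peak over 2 other starts had means of 5.62 and 5.24 (-0.39), whereas the 1045 bp peak next to it in a coding exon had 3.67 and 4.88 (1.21). A 327 bp peak just upstream of the gene had 0.17 and 3.02 (2.85). Part of the 1311 bp peak is shown since it is the wide peak with the largest difference (chr2:26206867-26207116, minus strand, upstream of the internal start); it holds 11 CG pairs.
Lhx3 peak: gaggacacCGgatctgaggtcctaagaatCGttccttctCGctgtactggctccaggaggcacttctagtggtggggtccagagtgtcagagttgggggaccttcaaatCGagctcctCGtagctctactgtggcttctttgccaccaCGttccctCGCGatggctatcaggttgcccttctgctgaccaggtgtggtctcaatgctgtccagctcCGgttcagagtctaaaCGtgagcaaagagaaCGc

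Lhx4 (chromosome 1, 155698031 to 155751684, minus strand) differed less. Its 10 peaks came to 23.9 normalized reads per kb in control and 23.2 in knockdown (-0.04). The widest, an intronic peak of 5082 bp, had means of 7.29 and 6.89 (-0.41), the lowest difference among LIM homeobox peaks of 2 kb or more. At the starts, the 788 bp peak over the 5′-most start had means of 4.32 and 3.08 (-1.24) and the 2536 bp peak over the internal start 5.77 and 5.89 (0.12). An intronic peak of 1622 bp had 4.19 and 5.25 (1.06). Within the pair, Lhx3 lay above the control and Lhx4 close to it, on the summed scale.

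**Figure D3:**
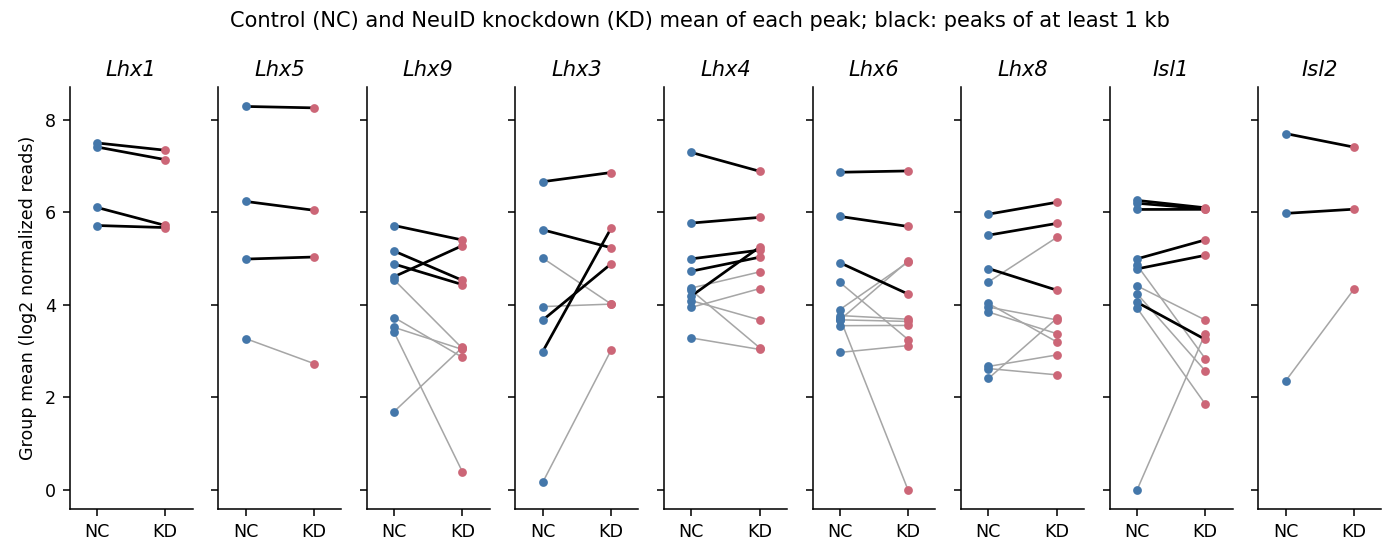
Authors' group mean of each LIM homeobox peak (y axis, log2 normalized reads) in control (NC, blue) and NeuID knockdown (KD, red), 1 panel per gene with a listed peak; lines join the means of a peak and are black for peaks of at least 1 kb. Most black lines are nearly level; the steepest black line is the Lhx3 peak that goes from 2.99 to 5.65, and 1 Lhx6 and 1 Isl1 peak reach the listed 0.

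Lhx6 and Lhx8 specify neurons born in the medial ganglionic eminence: Lhx6 the parvalbumin and somatostatin interneurons that also populate the hippocampus, Lhx8 forebrain cholinergic neurons. Lhx6 (chromosome 2, 36081953 to 36105408, minus strand) had 11 peaks, 23.5 normalized reads per kb in control and 22.8 in knockdown (-0.04). Its widest peak, 4271 bp over 8 annotated starts, had means of 6.86 and 6.89 (0.03), and the 1339 bp peak over an internal start 4.91 and 4.23 (-0.68). Inside the gene, peaks past the limit lay on either side: 847 bp with 3.67 and 4.95 (1.27), 998 bp with 3.90 and 4.92 (1.02), and 793 bp with 4.49 and 3.25 (-1.23).

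Next to the last of these, an intronic Lhx6 peak of 596 bp had a control mean of 3.72 and was listed at 0 in the knockdown. It is the sole one of the 69 LIM homeobox peaks listed at 0 in that group, against 794 of the 23668 in the list. A stretch of this peak is shown because it holds 0 CG pairs in 250 bases (chr2:36100510-36100759, minus strand, intron).
Lhx6 peak: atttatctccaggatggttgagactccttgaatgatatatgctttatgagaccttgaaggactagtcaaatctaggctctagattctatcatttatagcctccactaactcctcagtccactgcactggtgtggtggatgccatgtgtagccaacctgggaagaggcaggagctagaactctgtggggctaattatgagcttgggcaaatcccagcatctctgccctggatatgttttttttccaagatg

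Lhx8 (chromosome 3, 154306294 to 154330659, minus strand) was the other gene, after Lhx3, above the control on the summed scale, with 24.7 normalized reads per kb in control and 28.0 in knockdown (0.18). Its widest peak, 2274 bp over 2 starts and that of AI606473, had means of 5.96 and 6.22 (0.26). The 916 bp peak over an internal start had 4.50 and 5.46 (0.96), just short of the limit. Past it was a 582 bp peak upstream of the gene, with 2.41 and 3.71 (1.30).

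Isl1 and Isl2 are the islet pair, required in motor and sensory neurons. Isl1 (chromosome 13, 116298281 to 116309689, minus strand) had 11 peaks, 26.6 normalized reads per kb in control and 23.1 in knockdown (-0.20). The broad peaks matched closely: 2796 bp over a start with 6.26 and 6.10 (-0.16), 2664 bp at the 3′ end with 6.06 in each group, and 2661 bp over 3 starts with 6.20 and 6.08 (-0.12). Between the broad peaks over the starts lay narrower peaks with lower knockdown means: 754 bp over a coding exon with 4.86 and 2.84 (-2.02), and 509 bp over an internal start with 4.24 and 2.58 (-1.67). An upstream peak of 251 bp had 3.93 and 1.86 (-2.08).

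An Isl1 peak was listed at 0 in control, 250 bp in an intron with a knockdown mean of 3.38. It is the sole one of the 69 LIM homeobox peaks listed at 0 in control, against 777 of the 23668 in the list. The peaks of at least 1 kb alone gave a summed difference of -0.02, so the lower sum of Isl1 came from its narrower peaks. A stretch of the 754 bp peak is shown because it combines a lower knockdown mean with coding sequence (chr13:116305289-116305538, minus strand); 189 of the 250 bases are coding, and it holds 17 CG pairs with an observed to expected ratio of 0.870.
Isl1 peak: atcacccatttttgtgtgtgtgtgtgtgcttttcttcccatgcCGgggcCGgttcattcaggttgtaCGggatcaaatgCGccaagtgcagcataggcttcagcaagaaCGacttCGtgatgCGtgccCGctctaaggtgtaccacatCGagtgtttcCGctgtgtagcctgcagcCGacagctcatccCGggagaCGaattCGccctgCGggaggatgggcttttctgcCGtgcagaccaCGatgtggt

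Isl2 (chromosome 9, 55538672 to 55546180, plus strand) had 3 peaks, 31.3 normalized reads per kb in control and 29.1 in knockdown (-0.10). The 5914 bp peak, over an internal start, held 75.3% of the control reads, with means of 7.70 and 7.41 (-0.29). The 2526 bp peak over the 5′-most start and the start of Gm17226 had 5.98 and 6.07 (0.09), and a 392 bp peak upstream had 2.35 and 4.33 (1.98). The RefSeq promoter of Isl2 lies mostly in the gap between the broad peaks, which is why it is shown (chr9:55540899-55541147, plus strand): 20 of these 249 bases are in a listed peak, and it holds 16 CG pairs.
Isl2 promoter: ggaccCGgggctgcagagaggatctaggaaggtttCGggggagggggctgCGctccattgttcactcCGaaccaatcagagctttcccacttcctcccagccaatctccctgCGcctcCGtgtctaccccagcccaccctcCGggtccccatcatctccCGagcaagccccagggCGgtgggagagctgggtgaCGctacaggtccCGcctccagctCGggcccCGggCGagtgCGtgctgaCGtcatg

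**Figure D4:**
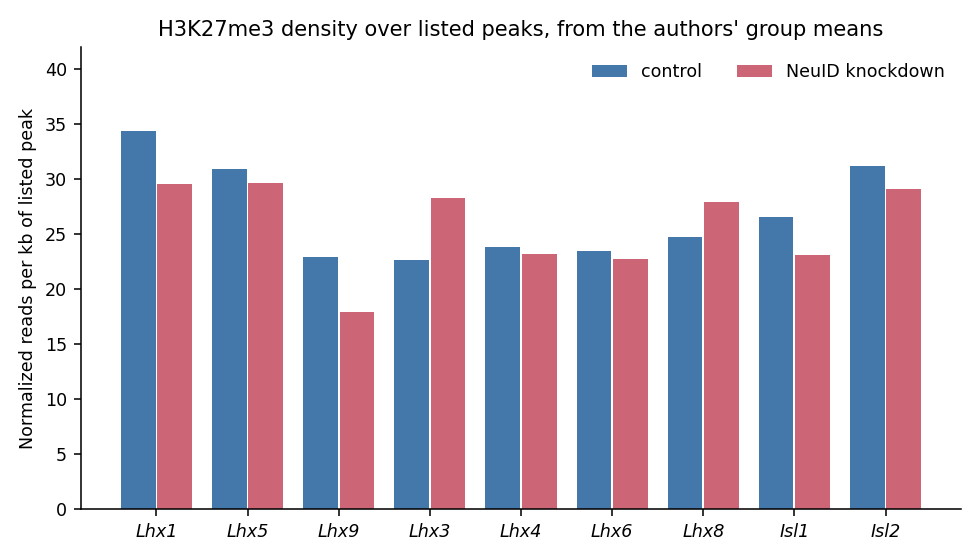
Normalized reads per kb of listed peak, summed over the peaks of each gene from the authors' group means, in control (blue) and NeuID knockdown (red); bars start at 0 and have no error, since no library values were used. Lhx3 and Lhx8 are higher in the knockdown (28.3 against 22.7 and 28.0 against 24.7), and Lhx9 shows the largest gap in the other direction (18.0 against 23.0).

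Per length, the control levels ran from 22.7 (Lhx3) to 34.4 (Lhx1) normalized reads per kb, with Isl2 and Lhx5 next to Lhx1. The knockdown levels ran from 18.0 (Lhx9) to 29.7 (Lhx5). On the summed scale 7 of the 9 genes lay below the control, and 3 of 9 after the same centring, so the direction of the genes near 0 depends on the scaling. Those that lay below 0 in each case were Lhx1, Lhx9 and Isl1. Most genes of the Pax and Dlx families, described below, also lay below the control on the summed scale. The share over all genes was not computed. Whether any of these gaps is larger than the spread between libraries cannot be read from group means.

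Neighbouring peaks of a gene often differed in sign. Of 47 pairs of adjacent LIM homeobox peaks less than 1 kb apart, 22 had differences of opposite sign (46.8%), against 47.0% of the 4364 such pairs in the whole list. Joined across these gaps, the 69 peaks formed 22 stretches, of which 1 was lower and 1 higher past the limit, both at Lhx9. Of the 13 stretches of several peaks, 11 were below 0, with differences between -1.34 and 0.32. Some lay nearer to 0 than the median of the stronger peaks (-0.11), among them stretches at Lhx4 (-0.007), Lhx6 (-0.04), Lhx5 (-0.05), Isl1 (-0.07) and Lhx9 (-0.08). The direction of these depends on the scaling, and the shares of stretches below 0 or past the limit over the whole list were not computed.

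The related LIM homeodomain genes and the proteins that work with the family were set beside it by the same rule. Lmx1a and Lmx1b had 4 and 24 peaks, 5 lower (17.9%) and 3 higher (10.7%) past the limit, with a summed difference of -0.09. Of 10 cofactor and LIM-only genes, 4 had a peak, 8 in all, none as wide as 1 kb and none over a start. Of these 8 peaks, 2 were lower (25%) and 1 higher (12.5%) past the limit. Of 17 genes known as partners or targets of LIM homeodomain factors, 14 had 95 peaks, 15 lower (15.8%) and 7 higher (7.37%) past the limit, with a median difference of -0.22 against -0.12 for the LIM homeobox peaks. Apart from the 25% lower of the cofactor and LIM-only genes, these shares were below the 20.6% lower and 20.4% higher of the list. The sole member of these lists past the limit at a start was Reln, the secreted signal of Cajal-Retzius cells and some interneurons, with means of 4.37 and 5.48 (1.11) in a 1232 bp peak. Of the 12 Reln peaks this was the 1 higher past the limit, against 5 lower, and their summed difference was -0.17.

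Pax and Dlx genes, other developmental homeobox and paired-box families, gave similar levels. The control means came to 26.9 normalized reads per kb at LIM homeobox peaks, 26.9 at Pax peaks and 27.2 at Dlx peaks, against 21.3 for the whole list. Of 130 Pax peaks, 21 were lower (16.2%) and 14 higher past the limit, with a summed difference of -0.17. Of 35 Dlx peaks, 3 were lower (8.57%) and 0 higher, with a summed difference of -0.13. By gene, only Pax1 (0.08) and Pax4 (0.54) of the 9 Pax genes lay above the control on the summed scale. Of the 6 Dlx genes only Dlx3 did (0.44). The higher share was 14.5% for LIM homeobox peaks, 10.8% for Pax and 0% for Dlx, and these gaps between families were not tested.

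**Figure D5:**
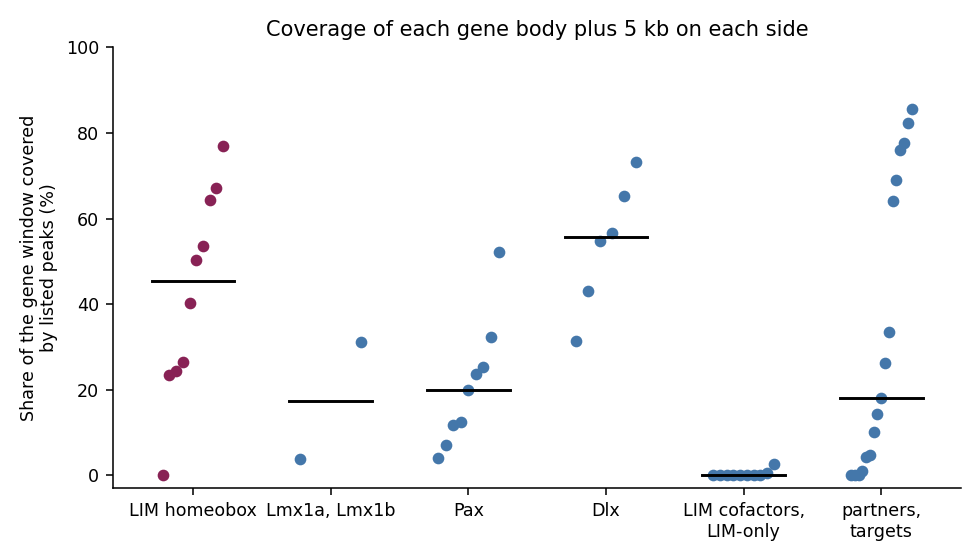
Share of each gene window (gene body plus 5 kb on each side) covered by listed H3K27me3 peaks (y axis, %), 1 point per gene, with the median of each group as a black line. LIM homeobox windows run from 0 (Lhx2) to 76.9% (Lhx1), and the cofactor and LIM-only genes stay at or below 2.61%.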

How the data were processed

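H3K27me3 ChIP-seq libraries were sequenced as single-end reads. The authors mapped them to mm10 (GRCm38) using Bowtie2, called peaks in the broad mode of MACS2 and compared the groups in DiffBind; versions, normalization, peak merging and input subtraction are not given in the sources used here. The deposited table holds log2 means of normalized reads per peak, over all libraries and per group. Its fold, p-value and FDR columns hold the authors' own comparison and were not used. The number of unused per-sample columns was 0. Input libraries were not used.

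Peaks were assigned by at least 1 shared base with the gene body plus 5 kb in GENCODE M21; starts are annotated transcript starts. Of the listed peaks, 23642 lay on 20 chromosomes, all within their ends, and 26 on other scaffolds. Summed differences are the log2 ratio of summed linear means. Sequences and promoters (250 bases before to 50 after a start) came from RefSeq GRCm38.p6; 9 of the 10 genes matched, with 13 promoters, and Lhx5 was not matched. The code for assignment and differences was run on simulated peaks with planted answers and no noise, which checks the code and not the values. Python 3.11.15, numpy 2.4.6, pandas 2.3.3, pysam 0.24.0 and matplotlib 3.10.9 were used.

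Named peaks were, for each gene, the widest, those over a start and those with a difference of at least 1 log2; of peaks listed at 0, the strongest in each group; and, of other lists, genes past that limit at a start. Some others were named after their values were seen. Members and lists were chosen with earlier results of these data known. Alternatives covered windows, overlap, filters on strength and width, limits, centring and leaving out genes.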

Additional observations from a re-analysis of the deposited data

How the results depend on the processing

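The count of lower LIM homeobox peaks (8) came to 3 among peaks whose overall mean reached 4, 0 for peaks of at least 1 kb, 15 at a limit of 1.5 times, 4 at a limit of 4 times and 1 when stretches replaced peaks. The count of higher peaks (10) came to 2 when peaks went to the nearest gene start within 5 kb, 5 among peaks whose overall mean reached 4, 3 for peaks of at least 1 kb, 3 at a limit of 4 times and 1 for stretches. Stretches, and leaving out single peaks, were chosen after seeing the data. Centring on those stronger peaks took the median difference (-0.12) to -0.013, the summed difference (-0.07) to 0.039 and the number of genes below the control (7) to 3. The median stayed between -0.16 and -0.01 over 21 alternatives, and the summed difference between -0.15 and 0.04 over 23. Of 94 values of single genes under alternatives, 21 shifted by over 0.1 log2 and 9 changed sign, none of these at Lhx1, Lhx3, Lhx8, Lhx9 or Isl1. The causes were not tested. No paired analysis was possible because only group means were used, and libraries could not be left out for the same reason. The spread between libraries, their depth and the low means of narrow peaks limit what single peaks show.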

Other observations

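By position, 19 LIM homeobox peaks covered an annotated start, internal starts included. Of these, 15 were at least 1 kb wide, with a median overall mean of 5.82, against 34 of all 69 and 4.53. A wider peak covers a start more readily, so the width of this class is partly set by its definition. Of the 19, 3 were lower (15.8%) and 1 higher (5.26%) past 1 log2, with a median difference of -0.16. The shares were 20.6% and 20.4% over all listed peaks, but 7.91% and 5.08% over those of at least 1 kb. The 3 lower peaks were all narrower than 1 kb. The 16 peaks of the upstream flanks included 1 lower (6.25%) and 3 higher (18.8%), and the 20 intronic peaks 3 (15%) in each direction. These classes share genes and neighbouring peaks, and no test was made between them.

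Starts of 5 other annotated genes lay inside LIM homeobox peaks: Lhx1os at Lhx1, Gm27196 at Lhx3, Gm27199 in the 9793 bp Lhx5 peak, AI606473 at Lhx8 and Gm17226 at Isl2. The mark at these starts cannot be told apart from that of the LIM homeobox gene.

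The ratio of observed to expected CG pairs had a median of 0.351 in LIM homeobox peaks and 0.218 in all listed peaks on the chromosomes, and 11 of the 69 (15.9%) reached 0.6, against 8.57%. At like width the order was the other way: among peaks of at least 1 kb the median was 0.404 against 0.484, and 20.6% against 28.3% reached 0.6. The 13 RefSeq promoters of the family had a median ratio of 0.678 and 19 CG pairs, against 0.384 and 7 over 32851 promoters of the same length. Both Lhx2 promoters, the unmarked ones, had ratios of 0.885 and 0.835, and promoters inside or largely inside peaks lay on either side of these, from 0.241 at Lhx8 and 0.261 at Lhx9 to 0.961 at Lhx1 and 1.05 at Isl1.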
